A study of Mus musculus with 11 samples.

Results

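The libraries described here measured the miRNAs of mouse embryonic stem cells transfected with vectors for DGCR8, without doxycycline, and of a DGCR8 knockout. They were 5 of the 11 small RNA libraries of the series, chosen by their labels: 1 of wild-type clone 10 and 1 of E518K clone 8, both labelled untreated, and 3 of the knockout (KO), against which each was set. All carried the same strain label, NBA1-19349 from Novus, and were grown without feeder cells in 2i medium with leukemia inhibitory factor. The untreated wild-type library (genotype label DGCR8 wt/wt) came from cells transfected with pSB ET iE-FlagDGCR8-wt together with pCMV(CAT)-SB100X, and the untreated E518K library (DGCR8 E518K/E518K) from cells given pSB ET iE-FlagDGCR8-E518K with the same second plasmid. The 3 KO libraries (DGCR8 -/-) were not transfected and had 300 ng/mL doxycycline for 48 h, so that vector, transfection and doxycycline change together between the untreated clones and the KO and cannot be told apart. A protocol field shared by all samples speaks of doxycycline, whereas the treatment label of both clones says untreated, and the latter was followed. The series text counts 3 independent clones per condition, but every KO title names clone 261, and nothing says that its 3 libraries came from separate cultures. P-values rest on a spread pooled over the replicated groups. These are the KO libraries, where it may be technical, and the wild-type and E518K clones given doxycycline. Each untreated side is 1 library of 1 clone, whose spread was assumed to be that of the replicated groups.

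DGCR8 holds the stem and apical loop of a primary miRNA transcript while its partner Drosha cuts the hairpin free. Without DGCR8 most miRNAs are not made, apart from those whose precursors reach Dicer another way. These are mirtrons, which splicing releases as short introns, capped hairpins made straight from a transcription start site, and fragments of snoRNAs or tRNAs. The E518K change lies in a double-stranded RNA binding domain of DGCR8 and recurs in Wilms tumours. In mouse embryonic stem cells the miR-290-295 cluster is the main product of the microprocessor and is known for speeding the passage through the cell cycle.

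The mature sequences that separate the libraries are given first, in lower case with the seed (bases 2 to 8, the part that pairs with targets) in capitals. They come from RefSeq on GRCm38.p6, where 628 of the 730 tested miRNAs matched by name. The following miRNAs are a selection of those higher in untreated E518K than in KO under every scaling used below. None was lower than in untreated wild type under every scaling, although miR-96-5p and miR-148a-3p were with the main one. Each had more counts in untreated wild type. They shared no seed with each other, although the seeds of miR-182-5p and miR-96-5p resemble one another.
miR-182-5p: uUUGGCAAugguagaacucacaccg
miR-96-5p: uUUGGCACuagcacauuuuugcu
miR-183-5p: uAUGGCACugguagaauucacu
miR-148a-3p: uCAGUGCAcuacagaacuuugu
miR-7a-5p: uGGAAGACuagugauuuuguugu
miR-495-3p: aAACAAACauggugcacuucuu
The next set was well detected in untreated wild type and lower in untreated E518K than there under every scaling used below. Of these, miR-292a-5p, miR-294-3p and miR-302b-3p were also higher in untreated E518K than in KO under every scaling. Here miR-292a-5p and miR-293-5p share the seed CUCAAAC, and miR-294-3p and miR-302b-3p share AAGUGCU, the seed of the embryonic stem cell miRNAs.
miR-292a-5p: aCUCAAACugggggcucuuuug
miR-293-5p: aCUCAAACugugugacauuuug
miR-293-3p: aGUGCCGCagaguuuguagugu
miR-294-3p: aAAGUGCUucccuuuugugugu
miR-302b-3p: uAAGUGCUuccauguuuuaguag
miR-30a-5p: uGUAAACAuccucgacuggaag
miR-672-5p: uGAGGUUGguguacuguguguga
miR-433-3p: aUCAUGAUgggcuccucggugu
Shown for contrast are miRNAs well detected in the KO libraries, a mirtron and a miRNA from a transcription start site.
miR-1981-5p: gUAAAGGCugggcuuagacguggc
miR-484: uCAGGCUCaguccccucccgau
The hairpin of miR-182 lies at chr6:30165918-30165992 on the minus strand, where the GENCODE annotation holds no other gene, and is shown with its 5p and 3p arms in capitals, since both arms were recovered in both untreated clones.
Mir182: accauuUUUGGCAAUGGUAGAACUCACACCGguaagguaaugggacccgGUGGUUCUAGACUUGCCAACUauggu
The hairpin of miR-293 lies at chr7:3220343-3220422 on the plus strand, opposite a UTR exon of the coding gene Nlrp12. Mir148a is at chr6:51269812-51269910 on the minus strand, and Mir495 at chr12:109718754-109718816 on the plus strand, both with no other annotated gene over them. Mir1981 lies within Marc2 on the same strand, and Mir484 opposite an exon of Marf1.

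Total miRNA counts were 208846, 166676 and 169316 in the KO, 1421247 for untreated wild type and 264507 for untreated E518K. Of 1966 mature miRNAs listed, 730 passed the low-count filter. At least 6 counts were seen for 272, 263 and 266 miRNAs in the KO, for 472 in untreated wild type and for 347 in untreated E518K. After thinning each library to 166676 counts these numbers became 234, 263, 263, 225 and 266, so that the larger number in untreated wild type was not seen at equal depth. The minimum of 6 stands for 3 small RNAs, because 90.3% of the counts from 1 to 40 were even numbers and a small RNA may thus be counted 2 times.

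How a library is scaled decides much of what is called, since miRNAs made without DGCR8 filled a large share of the KO libraries. Each comparison was therefore fitted with 5 scalings (TMM, total counts, the summed DGCR8-independent miRNAs, the pRPM values of the authors, and DESeq2), with TMM as the main one. A call is described as made under every scaling where the adjusted p was under 0.05 with each of the 5. The median log2 difference of all tested miRNAs between untreated wild type and KO was 1.60 with TMM, 0.00 with total counts and 3.49 with the DGCR8-independent list.

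By share of the counts, untreated wild type differed most from the KO in the embryonic stem cell cluster. The miR-290-295 cluster held 0.248%, 0.220% and 0.661% of the counts of the KO libraries and 58.6% of those of untreated wild type (exact binomial 95% interval 58.5% to 58.7%, counting error only). The same clone after induction had 57.3%. The 5p arm of miR-292a, which counted the same reads as the 3p arm of the antisense hairpin miR-292b, had 190, 148 and 476 counts in the KO and 366348 in untreated wild type, the highest count of that library. Its level was higher by 9.45 ± 0.63 on the log2 scale (SE, edgeR, adjusted p = 6.8e-41). With reads that 2 miRNAs share counted once, the cluster held 43.8% of untreated wild type.

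**Figure D1:**
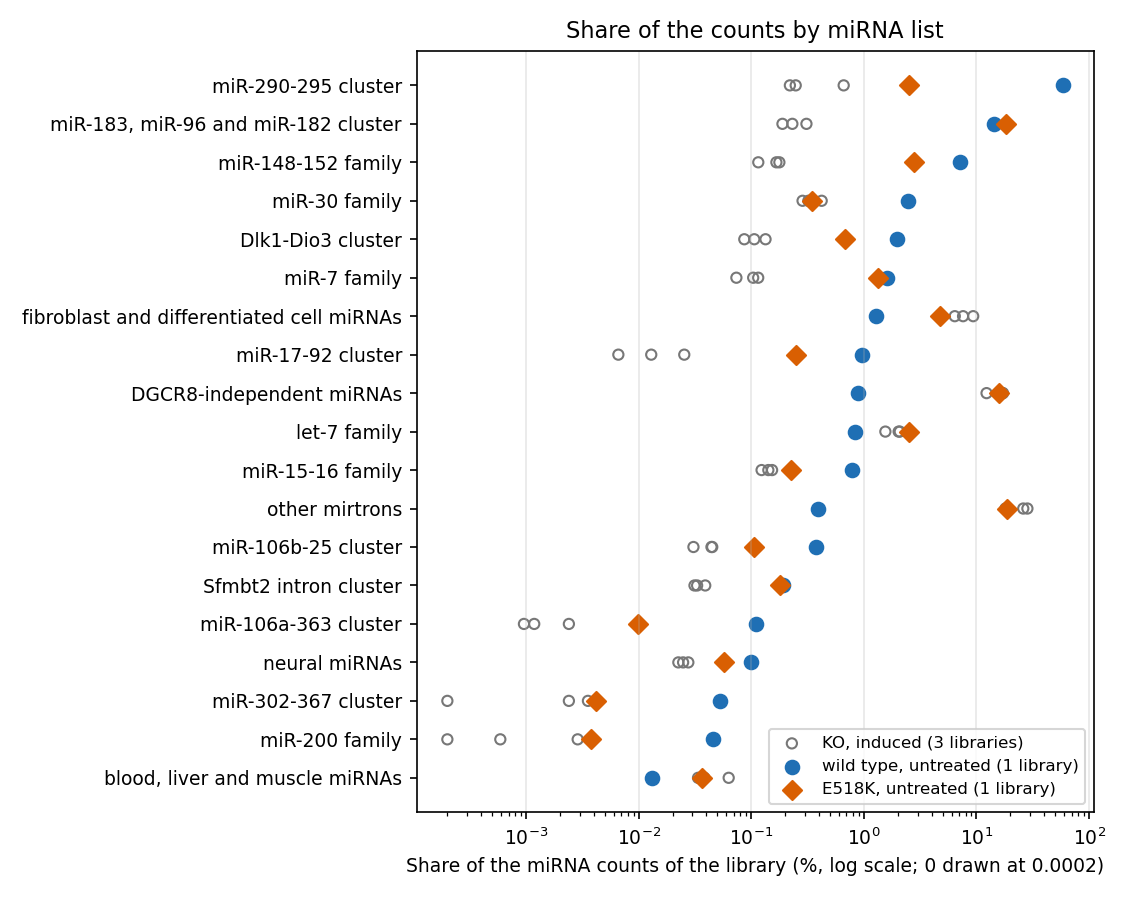
Share of the miRNA counts of each library held by each list, in percent on a log scale; open circles are the 3 KO libraries, filled circles untreated wild type and diamonds untreated E518K. The miR-290-295 cluster was at 58.6% for untreated wild type and 2.51% for untreated E518K, while the miR-183-96-182 cluster was at 14.4% and 18.3%, or at 19.8% and 18.5% with shared reads counted once.

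Of the 730 tested miRNAs, 316 (43.3%) were higher and 98 (13.4%) lower in untreated wild type than in KO. Under every scaling 206 (28.2%) were higher and 13 (1.78%) lower. Some of the 206 had 0 counts in every KO library and few in untreated wild type. miR-673-3p, with 12, was at least 0.253-fold the KO with total counts when 0 is read as up to 6 counts a library. Such calls do not show a level above the KO, here or in the lists below. With 0 counts held at their bounds, the median log2 difference of all tested miRNAs was 0.00 with TMM, in place of 1.60. The split moved from 209 higher and 215 lower with total counts to 401 and 13 with the DGCR8-independent list, and without KO library 3 it was 238 and 153. All 18 tested members of the miR-290-295 cluster passed the test as higher, 17 of them under every scaling, with a median log2 difference of 8.16 with TMM, or 7.60 with members absent from the KO at their lower bound (6.07 with total counts). Some of the 18 count the same reads in pairs, as miR-292a-5p and miR-292b-3p do, here and in the comparisons below. The miR-302-367 cluster, linked to the later, primed state of pluripotency, had 5 of 9 members higher, each of them with all 5 scalings. miR-302b-3p had 0 counts in each KO library and 390 in untreated wild type, which is at least 8.22-fold higher when 0 is read as up to 6 counts a library. Such lower bounds are given here under the scaling with the lowest value, which was total counts for untreated wild type; with TMM this one was 34.7-fold. By the same rule miR-302a-3p (30 counts) was at least 0.632-fold and miR-302c-3p (12 counts) at least 0.253-fold, so their calls do not show a level above the KO. The median log2 difference of the miR-302-367 cluster was 6.16 with TMM, or 1.42 with bounds.

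The second list by share was the miR-183-96-182 cluster, 1 primary transcript known from sensory organs. It held 0.189%, 0.232% and 0.309% of the KO libraries and 14.4% of untreated wild type. miR-182-5p had 234, 208 and 313 counts in the KO and 114119 in untreated wild type, a log2 difference of 7.91 ± 0.59 (SE, adjusted p = 5.9e-36). miR-183-5p went from 161, 170 and 203 counts to 88731 (8.04 ± 0.59, adjusted p = 4.8e-37). All 6 members, 3 hairpins with both arms, were higher under every scaling. Next came miR-148a-3p, of a broadly expressed family, with 123, 155 and 167 counts in the KO and 98576 in untreated wild type (8.45 ± 0.59, adjusted p = 8.4e-40). miR-7a-5p, a neural and endocrine miRNA, had 146, 190 and 172 counts against 22771 (6.15 ± 0.56, adjusted p = 2.3e-25). No KO library came near the untreated clone in any of these miRNAs.

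Families that many cell types use were higher too. In the miR-30 family 12 of 12 members passed as higher (11 under every scaling), with a median log2 difference of 5.24. miR-30a-5p had 370, 438 and 375 counts in the KO and 15438 in untreated wild type (4.38 ± 0.49, adjusted p = 3.0e-17). The growth clusters gave 10 of 12 for miR-17-92, 6 of 10 for miR-106a-363 and 6 of 6 for miR-106b-25 (8, 5 and 4 under every scaling), beside 43.3% of all tested miRNAs, or 28.2% under every scaling. miR-92a-3p of the first rose from 15, 6 and 28 counts to 9386 (8.26 ± 0.58, adjusted p = 4.9e-39). Of 84 tested miRNAs of Dlk1-Dio3, the imprinted cluster of chromosome 12, 71 were higher, 56 under every scaling. Their median log2 difference over the 84 was 7.73 with TMM, or 1.29 with members absent from the KO at their lower bound. Some calls rest on few counts, as for miR-494-3p with 11, at least 0.232-fold the KO with total counts. Some members had nearly the same counts in pairs, as miR-136-3p (1310) and miR-3071-5p (1308) did. For 198 hairpins both arms were tested, and both passed as higher for 90 of them, 1 arm for 44 and neither for 64.

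Some Dlk1-Dio3 miRNAs were at 0 in all 3 KO libraries. miR-136-3p had 1310 counts in untreated wild type, at least 27.6-fold higher than the KO, and miR-433-3p had 377, at least 7.94-fold higher. Outside that cluster, miR-335-3p from an intron of Mest was also at 0 in the KO and had 686 counts, at least 14.5-fold higher. miR-672-5p, encoded on the X chromosome within Nexmif, had 0, 0 and 6 counts in the KO and 3723 in untreated wild type. The ratio of its scaled counts was 1022 with TMM (counting interval from 349 to 4963) and 238 with total counts (81.3 to 1155), the lowest of the 5 scalings.

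**Figure D2:**
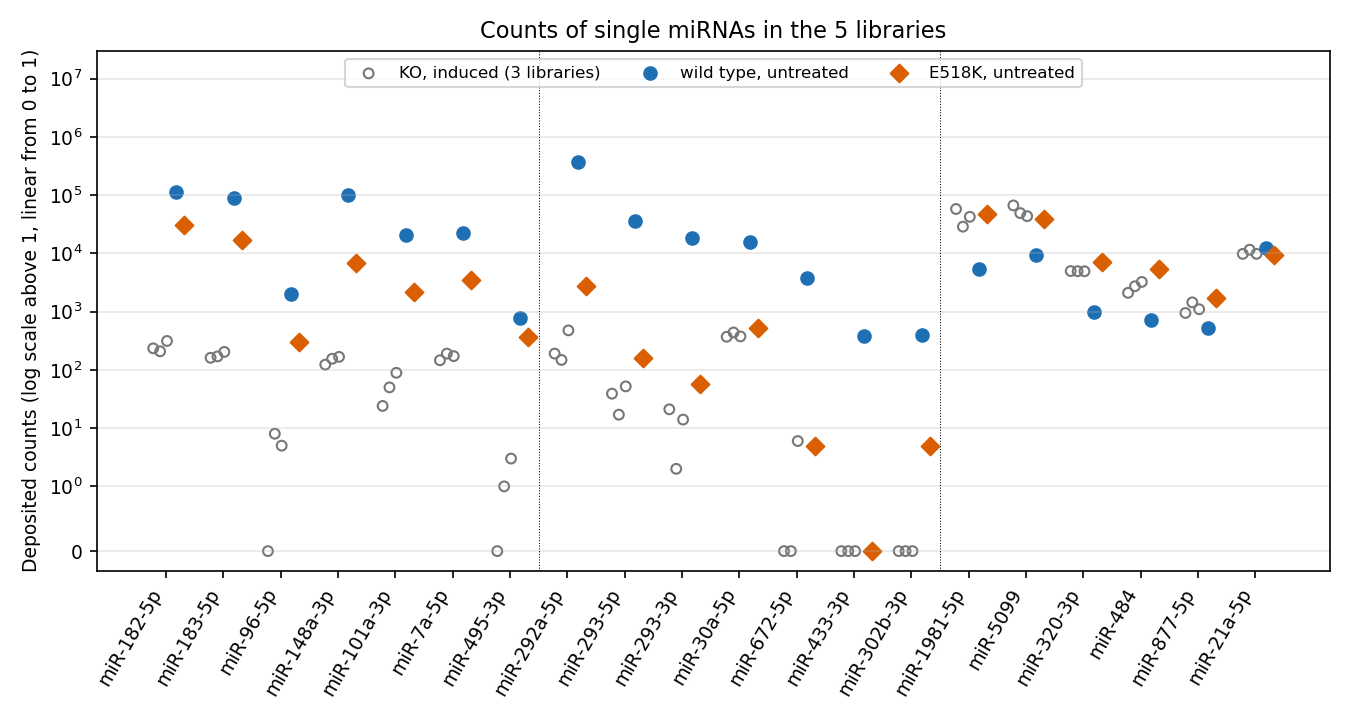
Deposited counts of 20 miRNAs in the 5 libraries, on an axis that is logarithmic above 1 and linear from 0 to 1; open circles are the KO libraries. Dotted lines separate miRNAs well detected in untreated E518K, miRNAs of untreated wild type that were lower in untreated E518K, and miRNAs that were abundant in the KO; miR-182-5p, for example, had 114119 counts for untreated wild type and 30995 for untreated E518K.

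Untreated E518K showed a shorter and differently ordered list of gains over the KO. Its total was 264507 counts against 1421247 for untreated wild type, which limits how many miRNAs can be called. At equal depth 266 miRNAs were detected in untreated E518K and 225 in untreated wild type. How far the length of the list follows depth was not tested. The miR-183-96-182 cluster held 18.3% of its counts (18.1% to 18.5%), and the miR-290-295 cluster 2.51% (2.43% to 2.60%). With reads that 2 miRNAs share counted once, the former held 18.5% of untreated E518K and 19.8% of untreated wild type, in place of the 14.4% given above, so the order of the clones turned with the handling of shared reads. miR-182-5p had 30995 counts, higher than the KO by 7.15 ± 0.57 on the log2 scale (adjusted p = 5.4e-30), and was the most abundant product of the cluster. miR-183-5p had 16962 counts (6.78 ± 0.56, adjusted p = 2.1e-28). miR-96-5p, with 0, 8 and 5 counts in the KO, had 302 (6.31 ± 0.59, adjusted p = 2.2e-22). The passenger arm miR-182-3p was at 0 in the KO and had 37 counts, at least 4.03-fold higher (the lowest value, with the DGCR8-independent list). In untreated wild type it had 70, at least 1.48-fold higher (the lowest value, with total counts). These bounds come from different scalings and do not rank the clones. With that list the bound for wild type was 25.8-fold, and with TMM the bounds were 7.18-fold for E518K and 6.23-fold for wild type.

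Over all tested miRNAs, 111 (15.2%) were higher and 1 (0.137%) lower in untreated E518K than in KO. Under every scaling 66 (9.04%) were higher and 0 lower, where edgeR with TMM had 8 lower at an unadjusted p under 0.05 and DESeq2 called 4 lower. Some of the 66 lie under the floor of 6 counts, as miR-106a-5p and miR-499-5p do with 5 counts each and 0 in the KO. Such calls do not show a level above the KO, here or in the lists below. The higher calls numbered 62 without KO library 2, 65 without KO library 3 and 141 without KO library 1. The 1 lower miRNA was miR-151-3p, a miRNA of the Ptk2 intron, with 141, 168 and 70 counts in the KO and 32 in untreated E518K (−1.74 ± 0.64, adjusted p = 0.045). All 6 members of the miR-183-96-182 cluster were higher under every scaling. In the miR-290-295 cluster 12 of 18 were higher, 9 under every scaling, with a median log2 difference of 3.02 with TMM, or 2.46 with bounds (2.10 to 3.02 over the scalings). miR-292a-5p had 2770 counts, higher than the KO by 3.52 ± 0.54 (adjusted p = 4.7e-09).

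Below these came a middle tier. miR-148a-3p had 6943 counts in untreated E518K (5.74 ± 0.54 over the KO, adjusted p = 2.2e-22). miR-7a-5p had 3518 (4.58 ± 0.54, adjusted p = 3.8e-15), and miR-101a-3p, known to repress the Polycomb enzyme Ezh2, had 2139 against 24, 50 and 89 in the KO (5.45 ± 0.53, adjusted p = 2.7e-21). Each of these 3 exceeded every KO library many times over and passed under every scaling. miR-92a-3p had 347 counts (4.63 ± 0.55, adjusted p = 6.6e-15) and stood with 6 of 12 members of the miR-17-92 cluster, 5 under every scaling. The neural miR-9-5p had 12, 24 and 6 counts in the KO, 930 for untreated wild type and 102 for untreated E518K (3.09 ± 0.56 for E518K, adjusted p = 6.8e-07).

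Other products in untreated E518K ranged from the KO level to further calls of higher. miR-30a-5p had 517 counts against 370 to 438 in the KO (0.60 ± 0.52, adjusted p = 0.60), and 1 of 12 miR-30 members passed. miR-293-5p had 161 counts against 39, 17 and 52 (2.39 ± 0.56, adjusted p = 0.00027), a call that was not made under every scaling. miR-672-5p had 5 counts, within the KO range of 0 to 6, and miR-433-3p had 0 where 0 allows up to 6. In the Dlk1-Dio3 cluster 20 of 84 were higher, 14 under every scaling, beside 15.2% and 9.04% of all tested miRNAs. Of the miR-302-367 cluster only miR-302b-3p passed (1 of 9), whose 5 counts lie under the floor of 6. Over 198 hairpins, both arms passed for 14, 1 arm for 45 and neither for 139.

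The untreated clones were also set against each other, 1 library against 1, where the other libraries enter only through the shared spread and the scaling. In untreated E518K 117 miRNAs (16.0%) were higher and 204 (27.9%) lower than in untreated wild type. Under every scaling 4 (0.548%) were higher and 103 (14.1%) lower, and the split ran from 165 higher and 103 lower with total counts to 4 and 369 with the DGCR8-independent list. Of the stem cell cluster 17 of 18 members were lower, 15 under every scaling, with a median log2 difference of −5.68 with TMM (−4.35 with bounds), where the median of all tested miRNAs was −0.68. miR-293-3p had 18481 counts for untreated wild type and 58 for untreated E518K (−7.19 ± 0.90, adjusted p = 1.3e-12). miR-292a-5p was lower by −5.92 ± 0.90 (adjusted p = 5.3e-09) and miR-30a-5p by −3.78 ± 0.73 (adjusted p = 4.3e-06), both under every scaling. In the miR-30 family 10 of 12 were lower, 9 under every scaling.

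The miR-183-96-182 cluster gave fewer calls than the stem cell cluster. Of its 6 members 1, miR-96-5p, was called lower, and none under every scaling, beside 27.9% and 14.1% of all tested miRNAs. With 6 members these counts do not set the cluster apart from all tested miRNAs. For miR-182-5p the log2 difference was −0.76 ± 0.71 (adjusted p = 0.39), with values from −3.64 to 0.55 over the alternatives. The median of the cluster was −0.71 with TMM, −3.58 with the DGCR8-independent list, −1.71 with pRPM and −0.63 with DESeq2. Only total counts gave a positive median, 0.59, so its direction between the clones turned with the scaling. The median of all tested miRNAs was −0.68 with TMM, −3.51 with the list, −1.67 with pRPM, −0.60 with DESeq2 and 0.00 with total counts. miR-495-3p, from the Dlk1-Dio3 cluster, had 0, 1 and 3 counts in the KO, 774 for untreated wild type and 367 for untreated E518K, a log2 difference between the clones of 0.05 ± 0.66 (adjusted p = 1.0) that became −2.83 with the DGCR8-independent list. Its ratio to the KO with TMM was 319 in untreated wild type (counting interval 87.7 to 2642) and 329 in untreated E518K (90.1 to 2748); the lowest values over the scalings were 74.2 (20.4 to 615) with total counts and 180 (49.4 to 1505) with the DGCR8-independent list.

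Ratios of 2 miRNAs within a library are free of any scaling. miR-182-5p per miR-292a-5p was 1.23, 1.41 and 0.658 in the KO, 0.312 for untreated wild type and 11.2 for untreated E518K. With doxycycline it was 0.209 to 0.278 over the 3 wild-type clones and 0.943 to 1.33 over the 3 E518K clones. In this ratio the untreated E518K library lay above all other libraries of the series. The ratio of miR-182-5p to miR-293-5p showed the same order of the clones without doxycycline, at 3.20 in wild type and 193 in E518K, against 6.0, 12.2 and 6.02 in the KO. With doxycycline it was 0.319 to 0.347 over the wild-type clones and 11.8 to 15.8 over the E518K clones. Against miR-320-3p, which does not need DGCR8, miR-182-5p stood at 0.0471, 0.0421 and 0.0636 in the KO, 114 for untreated wild type and 4.38 for untreated E518K. By the same measure miR-292a-5p was at 0.0383, 0.0300 and 0.0967 in the KO, 367 for untreated wild type and 0.392 for untreated E518K.

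**Figure D3:**
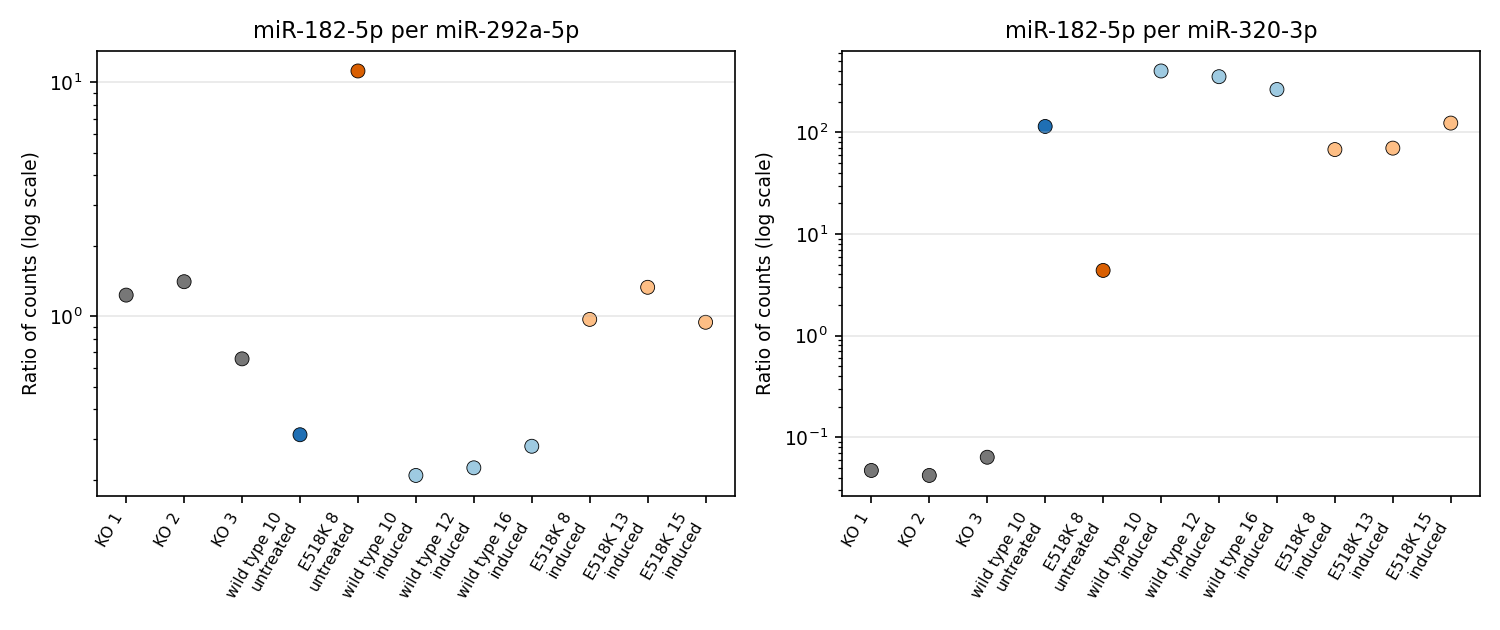
Ratio of the counts of miR-182-5p to those of miR-292a-5p and of miR-320-3p within each of the 11 libraries, on log axes; each point is 1 library. Untreated E518K was at 11.2 in the first ratio, above every other library, and at 4.38 in the second, between the KO libraries (0.0421 to 0.0636) and the induced E518K clones (67.8 to 124).

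The spread among miRNAs was examined for 88 of them that were higher in untreated wild type than in KO under every scaling, had at least 200 counts there, and were kept once where their counts matched those of another within 2% or 2 counts. In the authors' pRPM unit, which gave nearly the same weight to a count in both clones (0.483 and 0.523 pRPM), untreated E518K stood at a median of 3.50% of untreated wild type (quartiles 1.56% to 7.81%), and the KO mean at a median of 0.271%. No source used here says how the authors set this weight, and the percentages move with it: the same median was 7.04% with TMM, 17.4% with total counts, 0.956% with the DGCR8-independent list and 7.43% with DESeq2. miR-182-5p was at 29.5% in pRPM, 59.2% with TMM, 146% with total counts and 8.03% with the list. The order of the miRNAs among themselves is the same under every scaling. This is a description, because the set was chosen for its level in untreated wild type. The highest values were 51.4% for miR-495-3p, 34.1% for miR-136-5p, 32.2% for miR-3071-3p, 29.5% for miR-182-5p, 27.1% for miR-409-3p and 20.7% for miR-183-5p. At the other end 15 of the 88 were under 1%, among them miR-292a-5p at 0.820%, miR-293-5p at 0.490%, miR-293-3p at 0.340% and miR-672-5p at 0.146%. Of the 88, 58 were lower in E518K under every scaling in the test between the clones.

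Members of 1 cluster spread over more than a decade on this scale. In the miR-290-295 cluster 10 miRNAs ran from 0.340% to 11.8%, with miR-294-3p (4299 and 242 counts) at 6.11% and miR-291a-3p (8048 and 126) at 1.70%, although they share a seed and a primary transcript. In the Dlk1-Dio3 cluster 22 miRNAs ran from 0% to 51.4%. The miR-183-96-182 cluster spanned 16.6% to 29.5% (3 miRNAs), the miR-148-152 family 7.64% to 12.9% (3) and the miR-30 family 1.59% to 5.08% (6). A low value on this scale need not lie above the KO. For miR-30f the KO mean was at 1.73% and untreated E518K at 1.59%, and for miR-30a-5p they were at 2.52% and 3.63%. For miR-30c-5p they were at 0.272% and 2.07%. The 2 arms of miR-136 lay far apart: the 5p arm had 207 counts for untreated wild type and 65 for untreated E518K, the 3p arm 1310 and 2. An antisense hairpin, miR-3071, covers the same place and its arms had nearly the same counts, so reads of the 2 hairpins cannot be separated. A UGU in the loop, a motif that the microprocessor is known to read, was present between the annotated arms in 40 of the 78 of these miRNAs whose hairpin had both arms in the reference. Their median was 3.58%, and that of the 38 without it 4.44%. Over all 644 reference hairpins 31.5% had a UGU there.

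**Figure D4:**
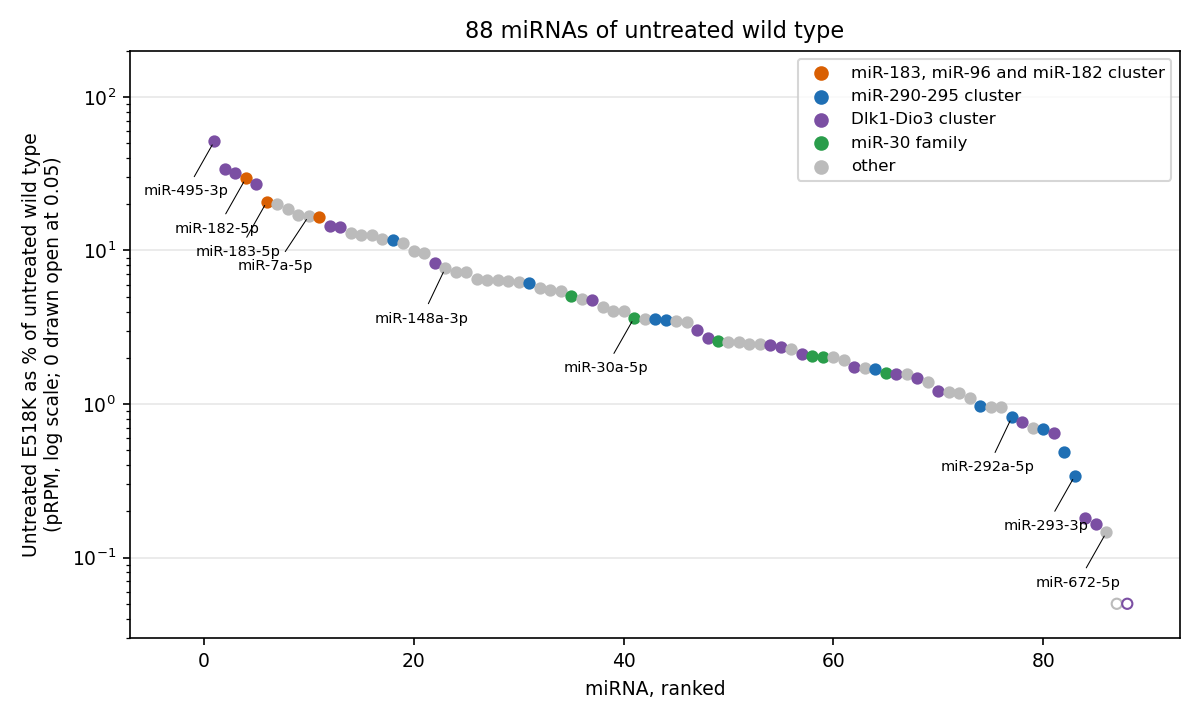
Level in untreated E518K as a percentage of that in untreated wild type (pRPM, log axis) for 88 miRNAs, ranked; points are single miRNAs coloured by list, and 0 is drawn open at 0.05. The median was 3.50%; miR-182-5p and miR-183-5p lay at 29.5% and 20.7%, and miR-293-3p at 0.340%.

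The miRNAs that do not need DGCR8 filled a small share of untreated wild type and about the KO share of untreated E518K. The list of mirtrons, start-site, snoRNA and tRNA products held 12.3%, 17.0% and 17.2% of the KO libraries, 0.880% of untreated wild type and 16.0% of untreated E518K. Other mirtrons, chiefly miR-1981-5p, held 28.3%, 18.1% and 26.0%, then 0.395% and 18.7%. miR-1981-5p had 57659, 28693 and 42352 counts in the KO, 5442 for untreated wild type and 47201 for untreated E518K. It was lower in untreated wild type than in KO under every scaling (−3.83 ± 0.73 with TMM, adjusted p = 8.7e-07). miR-5099 was the other abundant miRNA to do so, with 66368, 49031 and 43474 counts, then 9253 and 38688 (−3.38 ± 0.71 for wild type, adjusted p = 1.0e-05).

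For the 12 tested members of the DGCR8-independent list, direction rested on the scaling. Against the KO, 6 were lower in untreated wild type with TMM and 0 under every scaling, and the list median was −1.96 with TMM and 0.16 when the list itself set the scale. None was called in untreated E518K with TMM (median 0.99). The start-site miR-320-3p had 4966, 4941 and 4922 counts in the KO, 997 for untreated wild type and 7072 for untreated E518K, with a log2 difference from the KO of −3.21 ± 0.66 (adjusted p = 6.1e-06) and 0.74 ± 0.52 (adjusted p = 0.43). miR-484, also from a start site, had 2098, 2722 and 3229 counts, then 726 and 5452. The mirtron miR-877-5p had 947, 1441 and 1097, then 521 and 1691. The tRNA-derived miR-1983 had 4909, 6410 and 6571, then 2196 and 10346. The snoRNA-derived miR-1839-5p had 7093, 7419 and 8006, then 6140 and 11515 (−1.20 ± 0.59 in untreated wild type, adjusted p = 0.070), and miR-1291 had 64, 118 and 187, then 68 and 112. Of the others, miR-877-3p had 5029 to 5529 counts in the KO, 1795 for untreated wild type and 5954 for untreated E518K, and miR-1839-3p, both arms of miR-702, miR-1224-5p and miR-320-5p had at most 78 counts in any of the 5 libraries. Between the clones 8 of 12 were higher in E518K with TMM (median 2.53), and 0 under every scaling (median −0.35 with the list as the scale).

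**Figure D5:**
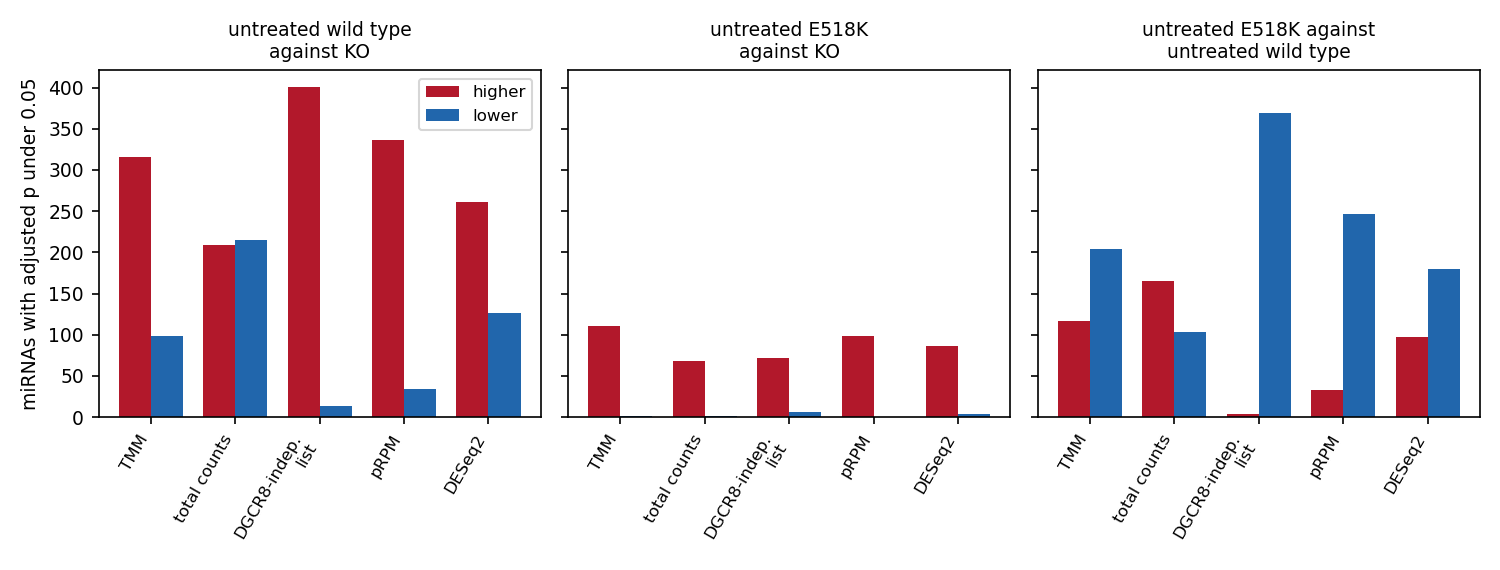
Number of tested miRNAs (of 730) with an adjusted p under 0.05, higher (red) or lower (blue), in each of the 3 comparisons under 5 scalings. For untreated wild type against KO the higher calls ran from 209 with total counts to 401 with the DGCR8-independent list; for untreated E518K against KO they ran from 68 to 111.

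The let-7 family, whose maturation Lin28 blocks in stem cells, held 1.55%, 2.08% and 2.04% of the KO libraries, 0.832% of untreated wild type and 2.52% of untreated E518K. let-7g-5p had 268, 290 and 344 counts in the KO, 4173 for untreated wild type and 530 for untreated E518K. It was higher in untreated wild type with TMM (2.87 ± 0.49, adjusted p = 2.5e-08), a call that was not made under every scaling. Of 13 tested members 4 were higher for untreated wild type and 2 for untreated E518K (2 and 1 under every scaling), and the list median in untreated wild type went from −1.93 with total counts to 1.70 with the DGCR8-independent list. The 2 called under every scaling in untreated wild type were let-7a-1-3p and let-7c-2-3p, each with 12 counts there and 0 in the KO. Their lower bound was 0.253-fold with total counts, which does not show a level above the KO. The miR-200 family of epithelial identity had 5 of 7 higher in untreated wild type and 1 of 7 in untreated E518K (5 and 0 under every scaling), beside 43.3% and 15.2% of all tested miRNAs (28.2% and 9.04% under every scaling). The miR-15-16 family, linked to cell cycle arrest, had 11 and 2 of 15 (4 and 1), the intronic Sfmbt2 cluster 19 and 6 of 29 (9 and 3), with 1 Sfmbt2 member lower in untreated wild type with TMM. Under every scaling the shares of the let-7 and miR-15-16 families were close to or below those of all tested miRNAs for both clones.

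Markers of other cell types were given the same treatment. Fibroblast and differentiated cell miRNAs held 6.42%, 9.35% and 7.60% of the KO libraries, 1.27% of untreated wild type and 4.73% of untreated E518K. Most of this was miR-21a-5p, with 9778, 11543 and 9795 counts, then 12348 and 9348. In untreated wild type 2 of 15 were higher and 5 lower than in KO with TMM (1 and 1 under every scaling). Of all tested miRNAs 43.3% were higher and 13.4% lower there (28.2% and 1.78% under every scaling). In untreated E518K 1 of the 15 was higher and 0 lower (0 and 0 under every scaling). Blood, liver and muscle miRNAs held between 0.0337% and 0.0630% of the KO, 0.0131% and 0.0363%, and neural miRNAs 0.0225% to 0.0276%, then 0.0993% and 0.0567%. Of 8 tested blood, liver and muscle miRNAs 2 were higher and 2 lower in untreated wild type (1 and 1 under every scaling). In untreated E518K 2 of these 8 were higher and 0 lower (1 and 0 under every scaling). The muscle miR-206-3p had 20, 30 and 17 counts in the KO, 0 for untreated wild type and 8 for untreated E518K, and the neural miR-124-3p had 0 in the KO, 54 and 0. Of 14 tested neural miRNAs 5 were higher in untreated wild type and 1, miR-9-5p, in untreated E518K (4 and 1 under every scaling), shares close to or below those of all tested miRNAs (43.3% and 15.2%; 28.2% and 9.04% under every scaling). Their part in the other results was not tested.

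Messenger RNA of Dgcr8 was not measured, so how much DGCR8 each untreated clone held is not known from these libraries. miR-1306, whose hairpin lies within Dgcr8 itself, gave no reading: its 2 arms had 0 counts in both untreated libraries and 1 count in the KO libraries together. With doxycycline the same clones had other proportions. The miR-290-295 cluster was at 29.0% of the counts in E518K clone 8, the miR-183-96-182 cluster stood at 24.6% there and at 6.42% in wild-type clone 10, and the miR-7 family went from 1.61% to 14.7% in wild-type clone 10 and from 1.34% to 6.41% in E518K clone 8.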

How the data were processed

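The authors deposited read counts for 1966 mature miRNAs in 11 small RNA libraries (NEBNext Multiplex Small RNA kit, total RNA from peqGold TriFast, per the labels' protocols), which the file header does not call normalized. They also deposited the same table in a scaled unit of RPM that its header calls pRPM. STAR, bedtools and GRCm38.p6 are named in the submitters' processing notes; for versions, trimming, strand and counting rule the sources used here give nothing. The deposited pRPM values gave whole reads for 100% of values within 0.01 reads, and these equalled the counts for 100%; the count test on them therefore made the same calls. A piRNA file was byte for byte the pRPM table and was not used.

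Library totals ran from 166676 to 1421247 counts in the 5 libraries compared, and intervals on shares are exact binomial at 95% and cover counting error only. All 11 libraries in 5 groups were fitted with edgeR 4.0.16 in R 4.3.3 (robust quasi-likelihood, TMM, filterByExpr at a minimum of 10 counts and of 15 in total), with Benjamini-Hochberg adjustment over 730 miRNAs and a threshold of 0.05. Adjusted p-values are from edgeR unless another tool is named, and the lone untreated libraries were assumed to vary like the other groups. Alternatives were 4 other scalings (1 of them DESeq2 1.42.0), no filter, the 5 libraries alone, and leaving out each KO library. The edgeR fit with TMM was also run on simulated data with as many miRNAs raised as lowered. That setting cannot show which scaling suits these data. A fold against a KO at 0 in each library uses a floor of 6 counts a library; these folds and the levels of E518K in percent of wild type were also computed under each scaling, a choice made after seeing the data. In 32 sets, 64 miRNAs had the same counts within 2% or 2 counts and may share reads.

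Named were the 10 most abundant miRNAs of each untreated library, the 10 largest changes in each direction (10 CPM or more in the higher group, outside the KO range), every tested DGCR8-independent miRNA, miR-1306, and the 2 most abundant of each of 19 lists; the text describes a selection of these, and others named for a count or a rank were chosen after their values were seen. The members and lists were chosen with earlier results of these data known.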

Additional observations from a re-analysis of the deposited data

Results flagged for a closer look

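For 8 of the 18 most abundant miRNAs, the difference between E518K and wild type without doxycycline differed from the same difference with doxycycline, by an interaction contrast in edgeR with an adjusted p under 0.05. On the log2 scale the contrast was −4.96 for miR-292a-5p and also for miR-292b-3p, which counts the same reads, −3.64 for miR-293-3p and −2.44 for miR-293-5p, all of the stem cell cluster. It was −4.02 for miR-30a-5p, −3.94 for miR-101a-3p, −3.73 for miR-148a-3p and −3.23 for miR-183-5p. In each case E518K stood lower relative to wild type without doxycycline than with it. For miR-30a-5p the differences behind the contrast were −3.78 without and 0.25 with doxycycline, and for miR-183-5p −1.26 and 1.97. The contrast for miR-293-5p was not called with total counts (−1.58, adjusted p = 0.13), and that for miR-182-5p was not called with TMM (−1.96, adjusted p = 0.075). Of the 730 tested miRNAs 30 passed with an adjusted p under 0.05 as positive and 127 as negative with TMM, 36 and 56 with total counts. The untreated side is 1 library of 1 clone of each kind, and these contrasts were added after seeing the data. Wild-type clone 10 and E518K clone 8 are on both sides of the contrast, and the fit took no account of this.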

How the results depend on the processing

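Counts are given as higher and lower. Against 316 and 98 for untreated wild type and KO, total counts gave 209 and 215, the DGCR8-independent list 401 and 13, pRPM 336 and 34, and the 5 libraries alone 161 higher, with fewer miRNAs tested. Against 111 and 1 for untreated E518K and KO, total counts gave 68 higher, the list 72 and 6, pRPM 0 lower, DESeq2 4 lower, no filter 0 lower, and the 5 libraries alone 55 higher. Halving the counts, an alternative chosen after seeing the data, gave 196 and 0. Against 117 and 204 between the untreated clones, total counts gave 103 lower, the list 4 and 369, pRPM 33 higher, and the 5 libraries alone 127 lower.

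Leaving out each KO library gave 234 to 308 higher and 93 to 153 lower for untreated wild type, 62 to 141 and 0 to 3 for untreated E518K, and 124 to 136 and 158 to 182 between the clones. The count for untreated E518K was 62 without KO library 2 and 65 without KO library 3, and that of lower miRNAs for untreated wild type was 153 without KO library 3.

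Single miRNAs turned direction with total counts in untreated wild type against KO (let-7f-5p −1.31, miR-143-3p −1.52). With the DGCR8-independent list they turned in the same comparison for miR-21a-5p (1.40), miR-3535 (0.33) and miR-1291 (0.32). Between the clones that list gave miR-495-3p −2.83, miR-182-3p −2.67, miR-667-5p −2.38, let-7f-5p −2.19, miR-21a-5p −2.16, miR-330-5p −2.07, miR-3535 −1.12, miR-1291 −1.04, miR-1839-5p −0.85, miR-1839-3p −0.64, miR-6539 −0.10 and miR-877-5p −0.059. The cause was not tested.

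The comparisons among the untreated clones and the KO could not be paired, because their groups share no clone. The contrasts between libraries without and with doxycycline share wild-type clone 10 and E518K clone 8, a pairing that the fit did not use. The low totals of the KO and of untreated E518K limit detection there: with a floor of 6 counts, 0 in untreated E518K does not show that a miRNA was absent.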

Other observations

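The 4 miRNAs that were higher in untreated E518K than in untreated wild type under every scaling were miR-1981-3p, miR-344-3p, miR-8114 and miR-7655-5p. miR-1981-3p, the other arm of the abundant mirtron, had 1462, 1435 and 1653 counts in the KO, 149 in untreated wild type and 2093 in the untreated E518K clone. miR-344-3p had 614, 856 and 736, then 108 and 1144. miR-8114 had 40, 45 and 56, then 4 and 99, and miR-7655-5p had 26, 10 and 10, then 0 and 32. All 4 were also lower in untreated wild type than in KO under every scaling, and none was called between untreated E518K and KO (adjusted p from 0.19 to 0.48, edgeR with TMM).

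A few miRNAs that were at 0 in every KO library had nearly as many counts in the E518K clone as in the wild-type clone, whose total was several times larger. miR-330-5p had 40 counts in untreated wild type and 32 in the E518K clone. miR-667-5p of the Dlk1-Dio3 cluster had 25 and 16, and miR-326-3p 10 and 14. They were named by rank after their values were seen, and counts this small leave the order between the clones unknown.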
